A study of Arabidopsis thaliana with 12 samples.

Results

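The genes described here are 80 Arabidopsis thaliana genes that the array's annotation knows by their locus identifier alone and whose signal was higher in stem than in leaf. They were chosen by that difference: each had a probe of its own, at least 4 values above 0 in each tissue, and a mean log2 intensity at least 1 unit (2-fold) higher in stem after quantile normalization. Of 598 such locus-named genes on the array, 438 met the condition on values above 0 and 160 did not. The difference was reached by 83 of the 438, and 3 of these (AT3G27550, AT4G31930 and AT4G30150) belong to 5 loci that the selection leaves out. Because the stem minus leaf difference chose the genes, it is described below without a test and supports nothing by itself.

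The samples were total RNA of wild-type plants of ecotype Columbia 0, 6 from leaves and 6 from stem material, each measured on a single-channel array and numbered 1 to 6 within its tissue. Age, growth conditions and the number of plants behind a sample are not in the labels, and nothing there says that the samples came from separate plants. In bulk tissue of this kind, fewer cells of a type and less RNA per cell cannot be told apart. The labels of the 12 samples name no further treatment or genotype.

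As background, the leaf blade is mostly photosynthetic mesophyll, whereas the stem adds elongating tissue, cambium, xylem, phloem and fibres to a green cortex. A locus identifier such as AT4G17070 gives the chromosome after the letters AT and the order along it, and says nothing about function. All 80 genes were found in the RefSeq table of assembly TAIR10.1 as protein-coding genes, and that table gives 79 of them no name beyond the locus and names of sequenced clones. The exception was AT5G55580, listed there also as mTERF9. It belongs to the mTERF family, named after a mitochondrial transcription termination factor, whose plant members bind nucleic acid and act in gene expression in mitochondria and chloroplasts. No function is stated here for the other genes.

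Depth in the sense of read counts does not exist for arrays, and the number of arrays limits the precision. Deposited intensities run from 0 to 100, with a median of 0.104 to 0.154 in leaf and 0.154 to 0.324 in stem arrays. Between 658 and 785 of 3439 probes were at 0 in a leaf array and between 479 and 536 in a stem array. Of 18 marker genes of photosynthetic leaf cells, 5 had a usable probe of their own (LHB1B2, PRK, PSAN, PSBW and PSBY), none of them at 0 in any sample; their summed normalized linear intensity ranged from 60.3 to 109 over leaf samples and from 88.0 to 148 over stem samples. By mean log2 intensity PSBW was at 4.54 in leaf and 6.16 in stem, PSAN at 2.83 and 2.97, LHB1B2 at 5.30 and 5.09, PSBY at 1.76 and 1.63 and PRK at 1.30 and 1.21, so the higher sum in stem lay with PSBW and 3 of the 5 had a lower mean in stem. None of 21 secondary wall and xylem markers, 2 of phloem, 2 of guard cells and 4 of flower organs had a probe of its own, so the stem label could not be set against stem markers. The part of other cell types in the differences below was not tested.

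The differences of the 80 genes ran from 1.005 to 3.15 on the log2 scale, with a median of 1.44 (2.72-fold), against a median of 0.17 over all 438 locus-named genes and 0.13 over all 2657 tested probes. A difference of 2 or more (4-fold) was seen for 18 genes, and 62 lay between 2-fold and 4-fold. In the linear model fitted to all tested probes (limma, Benjamini-Hochberg adjusted p under 0.05), 53 of the 80 were called as higher in stem; over all tested probes 14.1% were called as higher, and since the genes were chosen by this contrast nothing is read from the comparison. Among values above 0, every stem value lay above every leaf value for 29 of the 80 genes, against 7.79% of all tested probes. In deposited units 23 of these 29 were also without overlap. AT4G17070, AT1G13370, AT1G76450, AT5G40030, AT5G56070 and AT2G46220 overlapped there, so the separation of these 6 genes depends on the normalization. Other genes separated only before normalization. With zeros counted as the lowest, 40 of the 80 had no overlap in deposited units, and the matching share of all tested probes is not given here. The count of 53 rested on the treatment of the samples. Without number 3, 4, 5 or 6 it was 35 of 74, 33 of 73, 32 of 71 and 36 of 78 genes that could be tested. The share of all tested probes called as higher was 9.75%, 9.39%, 8.83% and 8.94% in turn. Without number 1 or 2 the count was 52 of 74 each time, beside 15.1% and 14.9%. With each array centred on its median it was 42 of 80, beside 9.67%. With zeros set to a floor it was 27 of 80, beside 7.68%. With neighbouring numbers averaged (samples 1 and 2, 3 and 4, 5 and 6 of a tissue) the count was 3 of 78, beside 1.04% of all probes tested that way. The 3 were AT1G17160, AT2G46850 and AT4G20300, named after their values were seen. Neighbouring numbers had rank correlations of 0.86 to 0.89 in leaf and 0.97 to 0.98 in stem. Those of other numbers are not given here, and no label names this grouping. All 80 differences stayed above 0 wherever these alternatives gave a value.

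**Figure D1:**
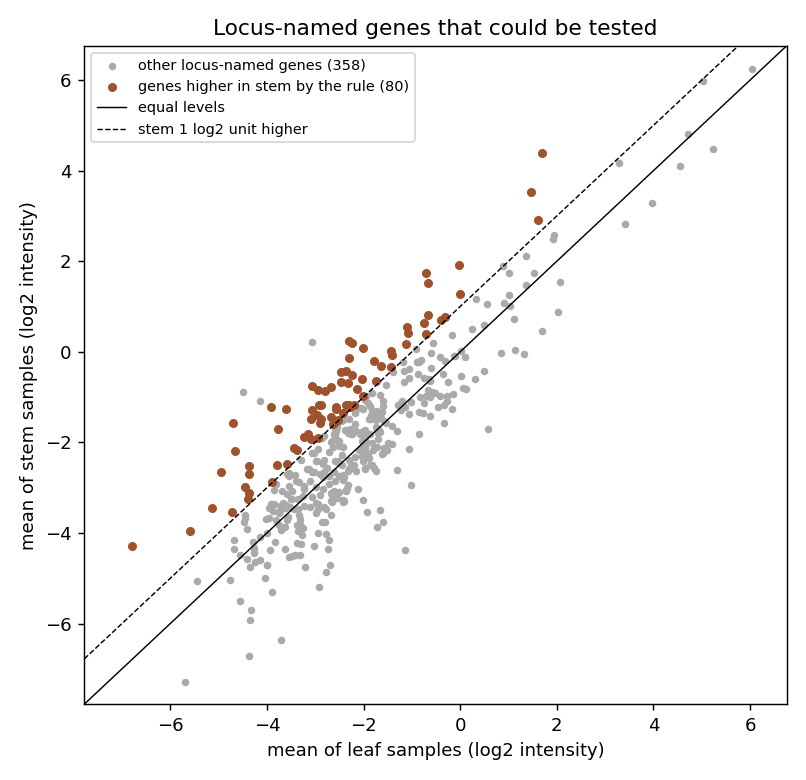
Mean log2 intensity of the 6 leaf samples (horizontal axis) against that of the 6 stem samples (vertical axis) for the 438 locus-named genes that could be tested, on quantile-normalized values. The 80 genes lie on or above the dashed line (stem 1 log2 unit higher) by the rule; the 3 grey points well above that line are the loci that the selection leaves out.

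Among the 55 genes measured above 0 in all 12 samples, 24 had no overlap between leaf and stem. The rule favours such separation, and the share among all probes with 12 values above 0 is not given here. AT4G17070, AT1G17160 and AT3G32930 had the largest differences of these 24. AT4G17070 had log2 intensities of -0.41 to 3.49 in leaf (median 1.50) and 3.63 to 5.22 in stem (median 4.28), a difference of 2.68. In the deposited table its leaf intensities were 8.82 and 11.6 in samples 1 and 2 and 0.561 to 3.68 in samples 3 to 6, and its stem intensities ran from 11.3 to 29.3. So in deposited units leaf sample 2, at 11.6, was above stem samples 1 (11.4) and 2 (11.3), and the tissues overlapped there. AT1G17160 lay between -1.67 and 0.62 in leaf (median -0.98) and between 1.32 and 2.21 in stem (median 1.70), a difference of 2.43 with a gap of 0.70 between the closest samples. For AT3G32930 the leaf range was -3.48 to -0.61 (median -2.63) and the stem range -0.51 to 0.93 (median 0.25), with the 2 highest leaf values again in samples 1 and 2.

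AT2G46850 had the widest gap between tissues of all 80 genes, at 1.43. It ran from -2.73 to -1.89 in leaf (median -2.36) and from -0.46 to 0.13 in stem (median -0.12), with means of -2.31 ± 0.33 and -0.15 ± 0.26 (SD, n = 6 each). In deposited units the leaf samples lay between 0.111 and 0.222 and the stem samples between 0.975 and 1.04, so the stem samples lay within a narrow band and every leaf sample far below it. AT4G20300, which the size rule did not name and which was picked for its small spread after the values were seen, had the second widest gap, 1.13. Leaf lay between -1.48 and -0.66 (median -1.07) and stem between 0.47 and 0.67 (median 0.53), and its stem SD of 0.082 was the smallest among the 80 genes. These genes separated the tissues with little spread within either.

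AT1G13370 showed another form of separation. Its stem values lay between 1.16 and 1.75 (median 1.58), whereas leaf samples 1, 2 and 3 were at 1.01, 1.05 and 0.33 and leaf samples 4, 5 and 6 at -1.64, -2.46 and -2.30. The leaf SD was 1.65 against 0.22 in stem, and the difference of 2.19 came mainly from leaf samples 4 to 6. In deposited units leaf samples 1 and 2 (1.94 and 2.05) were above stem sample 1 (1.88), so this gene separated the tissues only after normalization. AT3G57570 had leaf values of -2.86 to -0.53 (median -2.29) and stem values of -0.27 to 0.88 (median -0.10), a difference of 2.09. In AT5G64150 leaf ran from -4.16 to -2.14 (median -2.82) and stem from -1.44 to -0.08 (median -1.04), also a difference of 2.09, and here leaf sample 1 was the lowest of its tissue. The order of the leaf samples was thus not the same from gene to gene.

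The 10 largest separated differences also include AT1G76450, AT5G40030 and AT5G35100. AT1G76450 had leaf values of 0.23 to 2.96 (median 1.21) and stem values of 2.98 to 3.99 (median 3.55), a difference of 2.07, and leaf samples 1 and 2, at 2.90 and 2.96, nearly reached the lowest stem sample; in deposited units they were at 8.52 and 8.51, above stem samples 3 and 4 at 8.20 and 7.27. AT5G40030 lay between -1.04 and 1.36 in leaf (median -0.34) and 1.47 and 2.40 in stem (median 1.80), a difference of 1.93, and in deposited units its leaf sample 2 (2.53) was above stem sample 1 (2.40). AT5G35100 lay between -5.14 and -1.13 in leaf (median -1.77) and -0.96 and -0.06 in stem (median -0.54); its difference of 1.71 includes leaf sample 6, far below the others. These genes had less distance between the closest leaf and stem samples than AT2G46850.

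**Figure D2:**
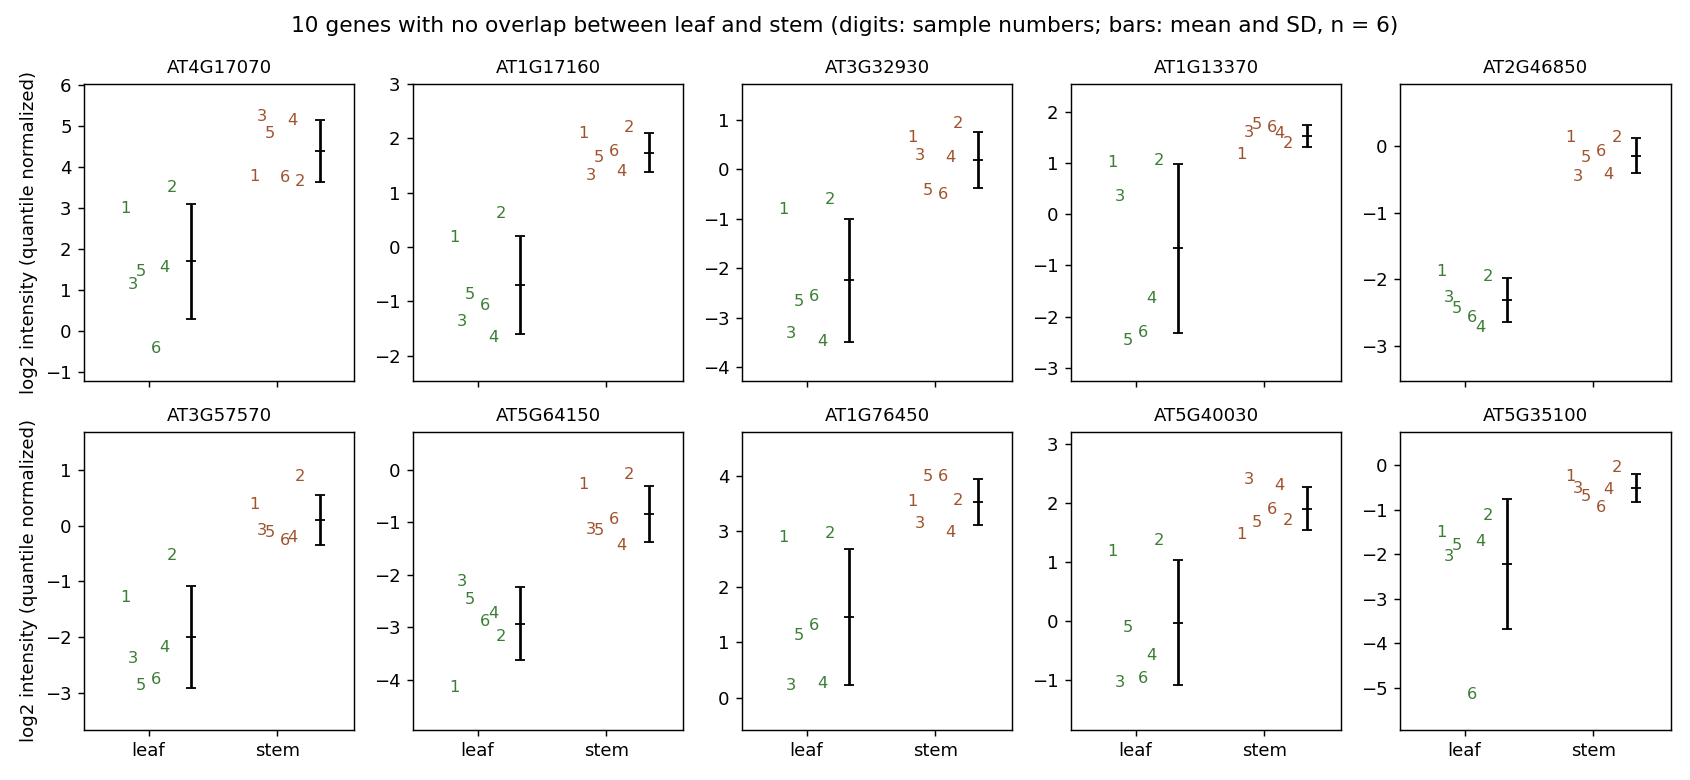
Quantile-normalized log2 intensity (vertical axes) of the 10 genes with the largest differences among those with 12 values above 0 and no overlap; digits are sample numbers and bars give the mean and SD of 6 samples. Leaf samples 1 and 2 lie nearest to stem in AT4G17070, AT1G17160, AT3G32930, AT1G13370, AT2G46850, AT3G57570, AT1G76450, AT5G40030 and AT5G35100, and leaf samples 1 and 2 lie farthest from stem in AT5G64150.

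The 5 genes with the highest mean log2 intensity in stem were AT4G17070 (4.38), AT1G76450 (3.53), AT2G46220 (2.92), AT5G40030 (1.91) and AT1G17160 (1.74); intensity depends on the probe as well as on the transcript, so these values do not rank the genes. AT2G46220 ran from 1.12 to 2.18 in leaf (median 1.56) and from 2.43 to 3.22 in stem (median 3.09), a difference of 1.30, without overlap after normalization; in deposited units leaf sample 2 (5.24) was above stem samples 1 and 2 (4.82 and 4.87). It differed by 0.34 within numbers 1 and 2, by 2.02 within 3 and 4 and by 1.55 within 5 and 6, and by 0.48 with each array centred on its median. None of the 80 genes reached the top of the scale at 100, the highest deposited intensity being 29.3 for AT4G17070 in stem sample 3, so no value is a lower bound for that reason.

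mTERF9 (AT5G55580) had log2 intensities of -3.29 to -1.68 in leaf (median -2.77) and -1.64 to -1.28 in stem (median -1.38). Its means were -2.66 ± 0.65 and -1.43 ± 0.16 (SD, n = 6 each), a difference of 1.23, and the closest leaf and stem samples were 0.042 apart. The gene was higher in stem in all 6 numbers, by 1.18, 1.88, 1.68, 1.79, 0.28 and 0.59 for numbers 1 to 6. The difference was therefore smaller in numbers 5 and 6 (0.44) than in numbers 1 and 2 (1.53) or 3 and 4 (1.73). Of the 78 genes with a value in all 3 pairs, 53 (67.9%) had their smallest difference in numbers 1 and 2, by signed or by absolute size. By absolute size this held for 45.5% of the 2509 tested probes with all 3 values. The rule used the same values, so nothing is read from that comparison. In deposited units leaf lay between 0.0775 and 0.209 and stem between 0.351 and 0.637.

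Leaf varied more than stem in these genes. The median SD over the 80 genes was 1.11 in leaf and 0.39 in stem on the log2 scale, and the leaf SD was the larger one in 76 genes (95%). Over all tested probes the medians were 0.74 and 0.45, and the leaf SD was larger in 73.7%. The rule used the same values, and 1 very low leaf value both lowers the leaf mean and widens the leaf SD. Nothing is therefore read from the comparison with all tested probes. An SD above 1 was found in leaf for 44 genes and in stem for 5. The 4 genes with the larger SD in stem, named for this, were AT1G49850, AT5G10920, AT2G44760 and AT1G22850. In AT5G10920 stem samples 1 and 2 were at -0.95 and 0.00, within the leaf range of -1.30 to 0.75, and stem samples 3 to 6 lay between 2.03 and 2.34. Dim probes scatter more on a log scale, and the genes were dimmer in leaf by the rule (median of the leaf means -2.55, of the stem means -1.18); the part of brightness in the spread was not tested.

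**Figure D3:**
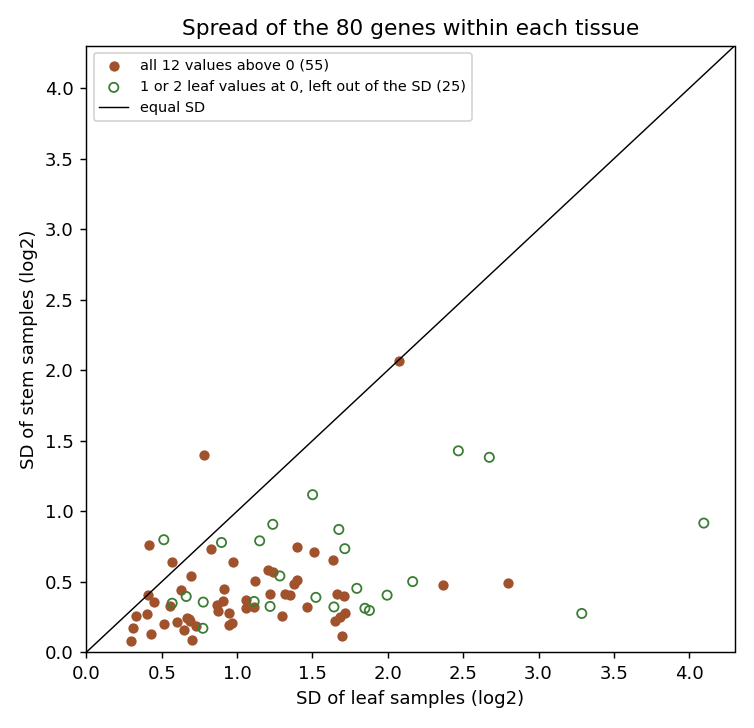
SD of the leaf samples (horizontal axis) against SD of the stem samples (vertical axis), both on the log2 scale, for the 80 genes; open symbols mark the 25 genes with 1 or 2 leaf values at 0, which are left out of their SD. Of the 80 points, 76 lie below the line of equal SD.

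Zeros fell in leaf only. Of the 80 genes, 55 had 12 values above 0, 16 had 1 zero and 9 had 2, and all 34 zeros were in leaf samples. The rule chose genes dimmer in leaf. Leaf arrays also held more zeros over the 3439 probes, 658 to 785 against 479 to 536 in stem arrays. The share over all tested probes is not given here, so nothing is read from the side on which the zeros fell. The 34 zeros were spread over the arrays, with 5, 4, 6, 9, 2 and 8 in leaf samples 1 to 6. The 9 genes with 2 zeros were AT4G13680, AT2G34050, AT2G19870, AT1G73090, AT3G13150, AT5G53080, AT3G15490, AT2G37880 and AT1G50000. What an exact 0 means in the deposited table is not given in the sources used here, so the difference of such a gene rests on 4 leaf values.

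AT4G13680 had the largest difference of the 80, 3.15 (8.87-fold), on 4 leaf values. It was at 0 in leaf samples 3 and 6, at 0.228, 0.0697, 0.0181 and 0.0022 in leaf samples 1, 2, 4 and 5, and between 0.1005 and 1.39 in stem, in deposited units. Leaf sample 1 was above stem samples 1 and 2 (0.125 and 0.1005), so the tissues overlapped. The difference within numbers 1 and 2 was -0.30 against 5.72 and 6.11 in the other pairs. On the leaf side the 5.72 rests on sample 4 alone and the 6.11 on sample 5 alone. With zeros at a floor the difference of AT4G13680 was 5.64. AT2G34050 had a difference of 2.51 with leaf values from -11.68 to -2.67 and stem values from -5.90 to -3.40, and its leaf sample 4 was above every stem sample. AT2G19870 differed by 2.47, with leaf samples 1 and 2 at 0 and stem between -4.68 and -0.80.

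The other 6 genes with 2 zeros differed by 1.20 to 2.28. AT1G73090 (2.28) had stem values within -3.08 to -2.33 and leaf values from -6.42 to -2.19, AT3G13150 (1.67) had stem within -3.38 to -2.23, and AT5G53080 (1.65) had stem within -5.56 to -2.98. All 9 genes with 2 zeros had a leaf value above their lowest stem value. With zeros at a floor, AT1G73090 differed by 4.69, AT3G13150 by 4.41, AT3G15490 by 4.60, AT2G37880 by 3.94, AT1G50000 by 4.39, AT2G19870 by 4.29 and AT5G53080 by 2.66, each more than 1.5 times its difference with zeros missing. AT2G34050 differed by 2.53 there, close to its 2.51 with zeros missing. Apart from AT2G34050, the size of the difference of these 9 genes thus depended on how zeros were treated.

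Within the sample numbers, which leaf and stem share, the difference was smaller in numbers 1 and 2. The median over the genes was 0.81 and 0.84 in numbers 1 and 2, and 1.76, 1.79, 1.67 and 1.80 in numbers 3 to 6. Stem was above leaf in 65 of 75, 64 of 76, 72 of 74, 67 of 71, 77 of 78 and 68 of 72 genes with both values for numbers 1 to 6, against 54.5%, 55.9%, 53.7%, 53.3%, 50.5% and 50.2% of all tested probes; the rule used the same values, so nothing is read from this. Of the 55 genes measured in all 6 numbers, 38 were higher in stem in every one. Averaged over neighbouring numbers, the difference was 1 or more in 36 of 79 genes for numbers 1 and 2, in 66 of 79 for 3 and 4 and in 67 of 80 for 5 and 6. These counts also follow in part from the rule, and the shares over all tested probes are not given here.

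**Figure D4:**
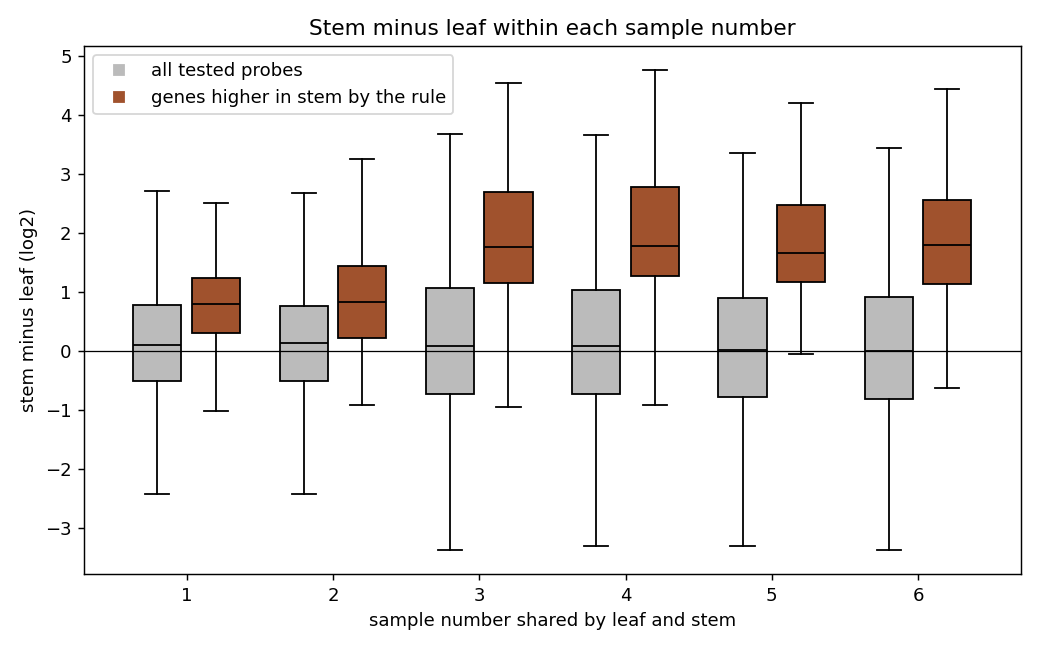
Stem minus leaf log2 difference (vertical axis) within each shared sample number (horizontal axis) for all tested probes (grey) and for the 80 genes (brown); boxes give quartiles and median, whiskers reach the farthest value within 1.5 box lengths, and farther points are not drawn. Medians of the 80 genes are 0.81 and 0.84 in numbers 1 and 2 and 1.67 to 1.80 in numbers 3 to 6.

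Taken over all 80 genes, the smaller difference in numbers 1 and 2 lay on the leaf side. The median log2 intensity over the 80 genes was -1.74 and -1.77 in leaf samples 1 and 2 and -2.68 to -2.55 in leaf samples 3 to 6, whereas the 6 stem samples had medians of -1.11 to -0.96. Both leaf samples 1 and 2 were above leaf samples 3 to 6 in 27 of the 55 genes with 6 leaf values (49.1%), and both were below in 4 (7.27%). Over the 1899 tested probes with 6 leaf values these shares were 20.3% and 21.7%. The rule used the mean of the same 6 leaf values, so nothing is read from this comparison. The labels give no reason to set leaf samples 1 and 2 apart; the grouping was seen in the data, and its cause was not tested. Without the samples numbered 1 and 2, 59 of the genes could be tested, with a median difference of 1.62, and 52 of them reached 1 or more.

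In some genes stem was not above leaf in numbers 1 and 2. AT3G16310 differed by -0.05 and -0.09 in numbers 1 and 2 and by 2.83 to 3.56 in numbers 3 to 6; its leaf values were -0.89 and -0.68 in samples 1 and 2 and -3.57 to -2.99 in the others. AT4G04370 differed by -0.05 and -0.21 in numbers 1 and 2 and by 1.47 to 1.87 in the others, and AT3G50350 by -0.42 and -0.25 against 0.66 to 3.42. AT1G22850 differed by -0.01 and -0.14 against 0.62 to 2.47, and AT1G79220 by -1.31 and -0.22 against 0.82 to 4.26. In AT3G16310, AT4G04370 and AT3G50350 leaf samples 1 and 2 were the highest of their tissue, and stem samples 1 and 2 the lowest of theirs. In AT3G50350, for example, these stem samples were at -0.12 and -0.41 against 0.06 to 0.71. In AT1G22850 and AT1G79220 stem samples 1 and 2 were also the lowest stem samples. They were at -2.07 and -2.15 against -1.26 to -0.62 and at -1.95 and -2.83 against -1.26 to -1.01. The stem side thus took part in all of these genes.

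AT2G14660 was uneven across the numbers. It differed by -5.10 and -1.70 in numbers 1 and 2, by 5.12 and 4.43 in 3 and 4 and by 3.55 and 1.14 in 5 and 6, and its stem sample 1, at -6.72, was below all its leaf samples. Its mean difference of 1.24 became 0.47, 0.61 and 0.78 without number 3, 4 or 5 and 2.44 without number 1. AT1G50020 was below 0 in numbers 1 and 5 (-0.23 and -0.05) and above it in the others, up to 4.22 in number 3, without which its difference of 1.31 was 0.74. Altogether 7 genes were lower in stem in 2 or more numbers, 19 in 1 number and 54 in none of those measured.

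At the other end, 20 genes differed by 1 or more within each of the 3 pairs of neighbouring numbers, 14 of them without overlap. The rule used the same values and the share over all tested probes is not given here, so nothing is read from these counts. AT2G46850 differed by 2.05, 2.06 and 2.38 in turn. AT5G02710 differed by 1.77, 1.73 and 1.32, AT5G14910 by 1.98, 1.65 and 1.15, AT4G20300 by 1.28, 1.92 and 1.75 and AT1G01730 by 1.46, 1.58 and 1.10; these were named after their values were seen. AT5G14910 lay between -2.54 and -1.25 in leaf (median -1.72) and between -0.37 and -0.03 in stem (median -0.20). AT5G02710 lay between -3.58 and -2.68 in leaf (median -2.99) and between -1.82 and -1.21 in stem (median -1.40). In these genes leaf and stem stood apart in each pair of numbers.

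A few genes had their largest difference in numbers 1 and 2, against the usual order. They numbered 13 of the 78 with a value in all 3 pairs, while 31 had it in 3 and 4 and 34 in 5 and 6. The rule used the same values and the shares over all tested probes are not given here, so nothing is read from these counts. AT5G64150 differed by 3.49 in numbers 1 and 2 and by 1.16 and 1.63 in the others. AT2G28540 differed by 2.49 against 0.29 and 0.34, and AT3G15490 by 3.51 against 0.79 and 0.23. Leaf samples 1 and 6 of AT3G15490 were at 0, so its 3.51 rests on leaf sample 2 alone (-5.09) and its 0.23 on leaf sample 5 alone. In AT2G43180 the 4.02 of numbers 1 and 2 came from leaf sample 2, at -10.01, and its difference of 1.84 was 0.62 without number 2.

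**Figure D5:**
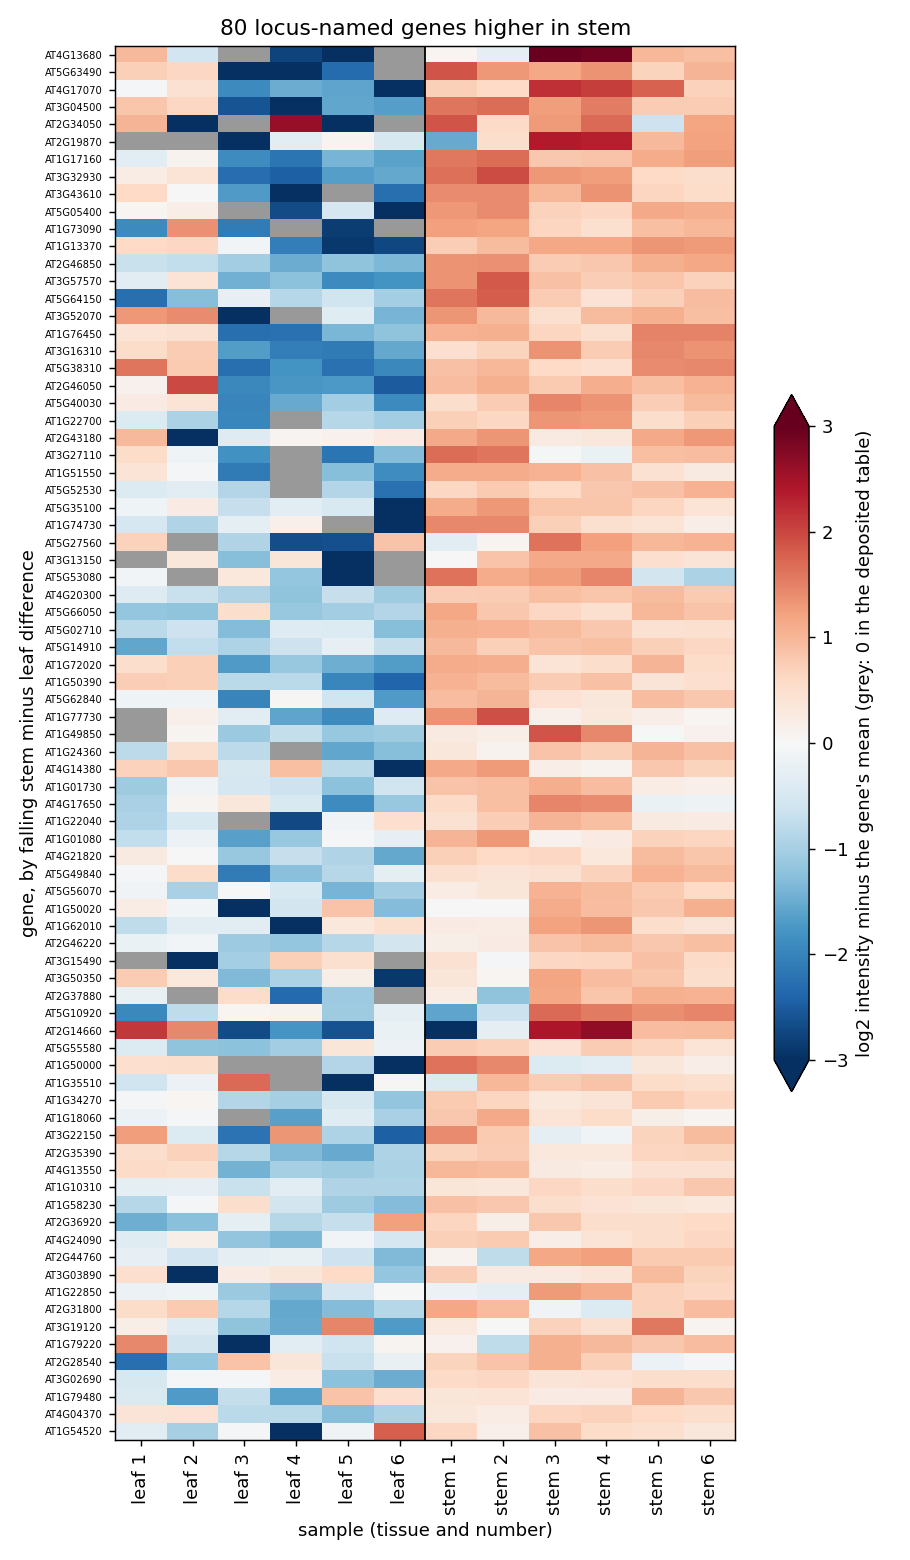
Log2 intensity of the 80 genes (rows, by falling stem minus leaf difference) in 12 samples (columns), as the distance from the gene's own mean; grey cells are the 34 zeros of the deposited table. Stem columns are mostly red and leaf columns 3 to 6 mostly blue, as the rule requires of the means, and leaf columns 1 and 2 are paler, with medians of -1.74 and -1.77 against -2.68 to -2.55.

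Leaving out 1 number moved the difference by more than 1.5 times in 14 genes. Besides AT2G14660, AT2G43180 and AT1G50020 these were AT1G35510 (1.19, or 0.30 without number 5), AT4G14380 (1.39, or 0.47 without number 6), AT3G52070 (2.08, or 0.81 without number 3) and AT1G79220 (1.04, or 0.40 without number 3). AT1G54520 (1.005) was at 0.42 without number 4, AT3G03890 (1.09) at 0.49 without number 2, AT1G62010 (1.31) at 0.65 and AT1G22040 (1.34) at 0.80 without number 4, and AT3G22150 (1.14) at 0.69 without number 6. AT2G28540 (1.04) was at 0.65 without number 1 and AT3G50350 (1.30) at 0.86 without number 6. The difference stayed at 1 or more without each number that gave a value in 53 of the 80 genes. The 9 genes with 2 zeros count among these 53, but they gave a value only without a number whose leaf value was 0. None of their measured leaf values was left out, so neither count says how stable these 9 genes were.

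Near the threshold the selection was arbitrary to a few hundredths of a unit. Just inside lay AT1G54520 (1.005), AT4G04370 (1.01) and AT1G79480 (1.03), and just outside AT4G19900 (0.998), AT3G51510 (0.991) and AT3G04560 (0.978). AT1G79480 ran from -3.19 to -0.62 in leaf and from -1.24 to -0.48 in stem. AT1G54520 ran from -6.76 to -1.58 in leaf and from -3.23 to -2.50 in stem, with 1 leaf sample, number 6, above every stem sample.

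By their identifiers 27, 13, 14, 9 and 17 of the genes lie on chromosomes 1 to 5, which is 24.3%, 17.1%, 16.9%, 11.3% and 19.3% of the tested locus-named genes of each. Among protein-coding genes in the order of the RefSeq table, no 2 of the 80 were immediate neighbours. The closest were AT1G50000 and AT1G50020, with 1 gene between them. AT1G50000 (1.20) was at 0 in leaf samples 3 and 4 and highest in stem samples 1 and 2, at -1.01 and -1.22, against -3.07 to -2.31 in stem samples 3 to 6; AT1G50020 was lowest in stem samples 1 and 2, at -2.79 and -2.77, against -1.97 to -1.67. Within stem these neighbours thus ran in opposite order, each described without a test.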

How the data were processed

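Total RNA of 6 leaf and 6 stem samples was measured on single-channel arrays. The authors deposited intensity values for 3439 probes in a single table, linear from 0 to 100 as seen in the values; no source used here states the background correction, the scaling or what a 0 stands for. Zeros were set to missing, log2 taken and the 12 arrays quantile normalized, and a probe was tested with at least 4 values above 0 in each tissue (2657 probes). limma 3.58.1 in R 4.3.3 with statmod 1.5.0 fitted stem against leaf (eBayes with trend and robust set, two-sided tests, adjustment by Benjamini-Hochberg across the tested probes); the fit was tested on simulated data. The simulated samples were independent, with the same spread in both tissues for a probe. That test therefore does not cover the unequal spread of leaf and stem or any likeness of neighbouring samples. Since no label ties samples to separate plants, the p-values of the fit reflect sample spread alone, possibly of technical origin. Figures used matplotlib 3.10.9. Probe genes came from GEO's platform annotation and names from RefSeq (TAIR10.1), used without coordinates because the table names no build.

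The genes, lists and naming rule were chosen with earlier results of these data known. The rule named the 10 largest separated differences with 12 values, genes with another name, 3 on each side of the threshold, genes with a sample far from its tissue, those below 0 in 2 or more numbers, the 5 brightest in stem, those with 2 or more zeros and immediate neighbours; other names are marked as chosen after their values were seen. The names in the paragraphs on numbers 1 and 2, on left-out numbers and on even differences include such genes. Promoter motifs were not analysed here.

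Same-numbered leaf and stem samples deviated together (correlation over 1870 probes of 0.17 to 0.26, against -0.17 to 0.15 for different numbers). All same numbers passed the rule over 0.1, but the highest value for different numbers did too. The rule therefore does not establish that the numbers pair the samples, and any pairing comes from the data. Alternatives were a block for the number, no normalization, median centring, a floor for zeros, other filters, eBayes without trend and robust variance, leaving out each number, averaging neighbours and leaving out numbers 1 and 2.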

Additional observations from a re-analysis of the deposited data

Results flagged for a closer look

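In 8 of the 80 genes, 1 sample lay well away from the remaining samples of that tissue, judged by its gap to the nearest value over the whole range; with 160 tissue groups looked at, chance alone sets about 1 in 20 apart. Low leaf values were AT2G19870 in leaf sample 3 (-8.34, others -3.66 to -3.10, 4 values), AT2G43180 in leaf sample 2 (-10.01, others -3.85 to -2.47) and AT1G62010 in leaf sample 4 (-4.78, others -2.24 to -0.995). Leaf sample 6 was low in AT5G35100 (-5.14, others -2.06 to -1.13), AT4G14380 (-7.48, others -2.97 to -1.27) and AT2G44760 (-1.09, others -0.39 to 0.0036). AT5G66050 was high in leaf sample 3 (-0.99, others -2.73 to -2.40), which is the only leaf value of this gene above its lowest stem value, -1.02. AT1G35510 was low in stem sample 1 (-4.48, others -3.60 to -3.08), the only stem sample among these 8.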

How the results depend on the processing

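The direction of all 80 differences was kept under each alternative that gave a value. The rule would keep 164 genes in the deposited values without normalization, among them all 80, and 70 to 83 without 1 number; with each array centred on its median it would keep 72, of which 68 are among the 80, and with zeros at a floor 120, of which 61 are. The median difference stayed within 1.33 to 1.92 in all settings and within 1.38 to 1.55 without 1 number. Of 411 values of named genes under these alternatives, 399 moved by less than the spread between samples and none changed sign. A gene with a wide spread can change much and still be counted there. AT2G14660, for example, went from 1.24 to 0.25 with zeros at a floor. The count thus does not show that the sizes of the differences were stable. The 53 called genes were 27 with zeros at a floor and 3 with neighbouring numbers averaged, and 32 to 52 without 1 number. Only 78 of the 80 could be tested with neighbouring numbers averaged, and 71 to 78 without 1 number. The 643 called probes were 45 with neighbouring numbers averaged, where fewer samples enter, and 374 to 655 without 1 number. With the number as a replicate block, 55 of the 80 genes and 708 probes were called, so the block changed no count by over 1.5 times. Over all tested probes the median difference was 0.62 in the deposited values and 0.13 after normalization. Where no cause is given, the cause was not tested. The number of arrays limits the precision.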
